A study of Caenorhabditis elegans with 2 samples.

Results

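The cuticle collagen genes of *Caenorhabditis elegans* were taken as the protein-coding genes whose symbols start with col-, dpy-, rol-, sqt- or bli- in the Ensembl annotation of the WBcel235 assembly. There were 194 of them among 19985 protein-coding genes, 156 named col- and 38 named dpy-, rol-, sqt- or bli-. The measurement is ChIP-seq of the ETS-domain transcription factor ETS-7. In this assay chromatin is fragmented, the pieces held by the protein are pulled down with an antibody, and their DNA is sequenced and mapped back to the genome. Both samples belong to 1 group, whole early embryos of hermaphrodite strain OP487, taken 3 h after synchronization by egg bleaching. The strain stably expresses ETS-7 with a GFP-FLAG tag at its C-terminus, and the precipitation used an antibody against GFP. The samples are biological replicates 3 and 4 in the labels, and there is no second genotype, stage or treatment to compare them with. The labels do not state the promoter of the transgene or the level of tagged ETS-7.

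The cuticle is the extracellular coat that the epidermis secretes, and its first layer is laid down late in embryogenesis. Most of it is collagen, a protein with long runs of the triplet Gly-X-Y, in which a glycine starts each triplet and lets 3 chains wind around each other. Dumpy (dpy), roller (rol), squat (sqt) and blister (bli) are the mutant body shapes for which the other genes were named, so these symbols cover collagens, the enzymes that hydroxylate, fold and cut them, and some genes of unrelated function. Translation of the annotated coding sequences gave at least 20 Gly-X-Y triplets, in runs of 3 or more, in 175 of the 194 genes, with a median of 51 triplets. The other 19 were 18 of the dpy-, rol-, sqt- and bli- genes, which had at most 11, and col-17, whose annotated reading frame gave 0 and whose shifted frame gave 51. The name col- thus matched the protein in all cases but col-17, and 20 of the 38 other genes hold collagen repeats as well.

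The authors deposited a list of regions for each replicate (16227 regions for replicate 3 and 15533 for replicate 4), a pooled list of 11626 regions and an optimal list of 595. All 595 optimal regions are the 595 pooled regions of highest signal, and the lowest of them has a signal of 80.7. Signal is the authors' value per region, and serves here to order the regions of 1 list and to set lists side by side. Its scaling is not given and no read counts were used. Depth is therefore unknown, and the spread between the replicates is the only error that can be shown. The labels call the replicates biological and give each a biosample of its own. The authors' name for the pooled list says that it holds background as well as peaks. Per the deposited q values, most pooled regions are weak calls. A q value of 0.05 or less was given to 1284 of the 11626 pooled regions (11%), all optimal regions among them, and the median q over the pooled list is 0.688. Whole embryos mix many cell types, so a weak region in all cells and a strong region in a few cells cannot be told apart.

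Few cuticle genes had a strong ETS-7 region at their 5' end. A gene was counted when the summit of a region lay from 1000 bp upstream to 200 bp downstream of any of its annotated transcript starts, a span called the promoter here. In the optimal list this held for 2 of the 194 genes, col-185 and col-71, against 2.07% of all protein-coding genes, and for none of the 38 dpy-, rol-, sqt- and bli- genes. In the pooled list it held for 20 of the 156 col- genes (12.8%) and for 10 of the 38 others (26.3%), against 21.6% of all protein-coding genes. The col- share was below that of all genes in each list, and the share of the others was above it in the pooled list and the full replicate lists. In replicate 3 the shares were 22.4% of col- genes and 34.2% of the others, against 26.4% of all genes. In replicate 4 they were 17.9% and 28.9%, against 26.3%. With the replicate 4 list cut to the length of the pooled list they were 14.1% and 18.4%, against 21.4%, so the others were then below all genes. A region in the lists of both replicates was found for 10.9% of col- genes and 23.7% of the others, against 15.4%. With pooled regions of q 0.05 or less, an alternative added after the data were seen, 4 cuticle genes remained (3 col- genes and 1 other), against 4.13% of all genes. These are counts beside a background, with no test of the difference.

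Windows around 4 of the promoter summits are printed here because these are the cuticle gene promoters of highest signal, and the sequences show how differently the regions are placed. Each is read 5' to 3' on the strand of its gene from the RefSeq sequence of WBcel235 and reaches 60 bp to either side of the summit. The window for col-71 is II:3502763-3502883 (minus strand), for col-185 X:13511996-13512116 (minus strand), for col-2 IV:10085785-10085905 (minus strand) and for dpy-27 III:3820355-3820475 (minus strand). Capitals mark the bases of a transfer RNA gene in the col-185 window. In the col-2 window they mark CCGGAA, a longer form of the GGAA that ETS-domain proteins bind, read on its other strand as TTCCGG. The windows for col-71 and dpy-27 hold neither a transfer RNA gene nor CCGGAA. The shorter GGAA, read on either strand, does occur in both.
col-71: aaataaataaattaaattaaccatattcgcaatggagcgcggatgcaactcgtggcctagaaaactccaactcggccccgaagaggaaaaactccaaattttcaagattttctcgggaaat
col-185: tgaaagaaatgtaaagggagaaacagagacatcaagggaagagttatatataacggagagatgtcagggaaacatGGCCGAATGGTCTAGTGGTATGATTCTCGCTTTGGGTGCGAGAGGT
col-2: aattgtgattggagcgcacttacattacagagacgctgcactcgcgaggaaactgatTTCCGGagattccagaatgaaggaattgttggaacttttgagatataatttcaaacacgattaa
dpy-27: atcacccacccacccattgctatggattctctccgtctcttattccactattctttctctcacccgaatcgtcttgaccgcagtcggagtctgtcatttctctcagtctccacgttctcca

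The highest promoter signal belonged to col-185, a collagen gene on chromosome X. Its region, X:13511816-13512295, had a signal of 136.7 in the pooled list (rank 164), 74.6 in replicate 3 and 66.0 in replicate 4. The summit lay 959 bp upstream of the gene, near the outer edge of the promoter span, and 15 bp from the tRNA gene H06A10.t1. It was the only one of the 30 pooled promoter regions of cuticle genes with a small RNA gene within 500 bp, and the part of that tRNA gene in its signal was not tested.

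The second optimal region, II:3502583-3503062, lies between col-71 and the gene Y49F6B.2. Its signal was 84.4 in the pooled list, 42.2 in replicate 3 and 39.0 in replicate 4, so both replicates gave it close values. With rank 532 it was the lowest cuticle gene region inside the optimal list. The summit lay at -253 bp of col-71 but only 145 bp from the start of Y49F6B.2, and the data do not tell which of these genes the region belongs to. Once regions were counted only for the gene with the nearest 5' end and regions near small RNA genes were set aside, no cuticle gene had an optimal region, against 1.21% of all genes. In the pooled list that left 14 of the 156 col- genes (8.97%) and 10 of the 38 others (26.3%), against 17.0%, with col-44 and col-142 counted through a second, weaker region of their own. The optimal calls also turn on single replicates. Lists of 595 regions cut from the top of replicate 3 alone held the promoter regions of col-185 and dpy-27, and those from replicate 4 alone held that of 1 cuticle gene, col-185.

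The highest promoter region outside the optimal list belonged to dpy-27, which encodes a condensin subunit of the dosage compensation complex that lowers X-linked transcription in hermaphrodites and is no cuticle component. Its region, III:3820175-3820654, had a signal of 74.6 in the pooled list (rank 710), 46.9 in replicate 3 and 27.2 in replicate 4. The summit was intergenic, 736 bp upstream. The replicates differed more here than at col-71, with ranks of 464 in replicate 3 and 1906 in replicate 4. Next came col-2, a collagen gene, with 65.6 in the pooled list, 22.7 in replicate 3 and 40.5 in replicate 4. Its summit lay at -394 bp, 292 bp from the start of ndc-80, which encodes a kinetochore protein and is transcribed from the other side of the same intergenic stretch.

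**Figure D1:**
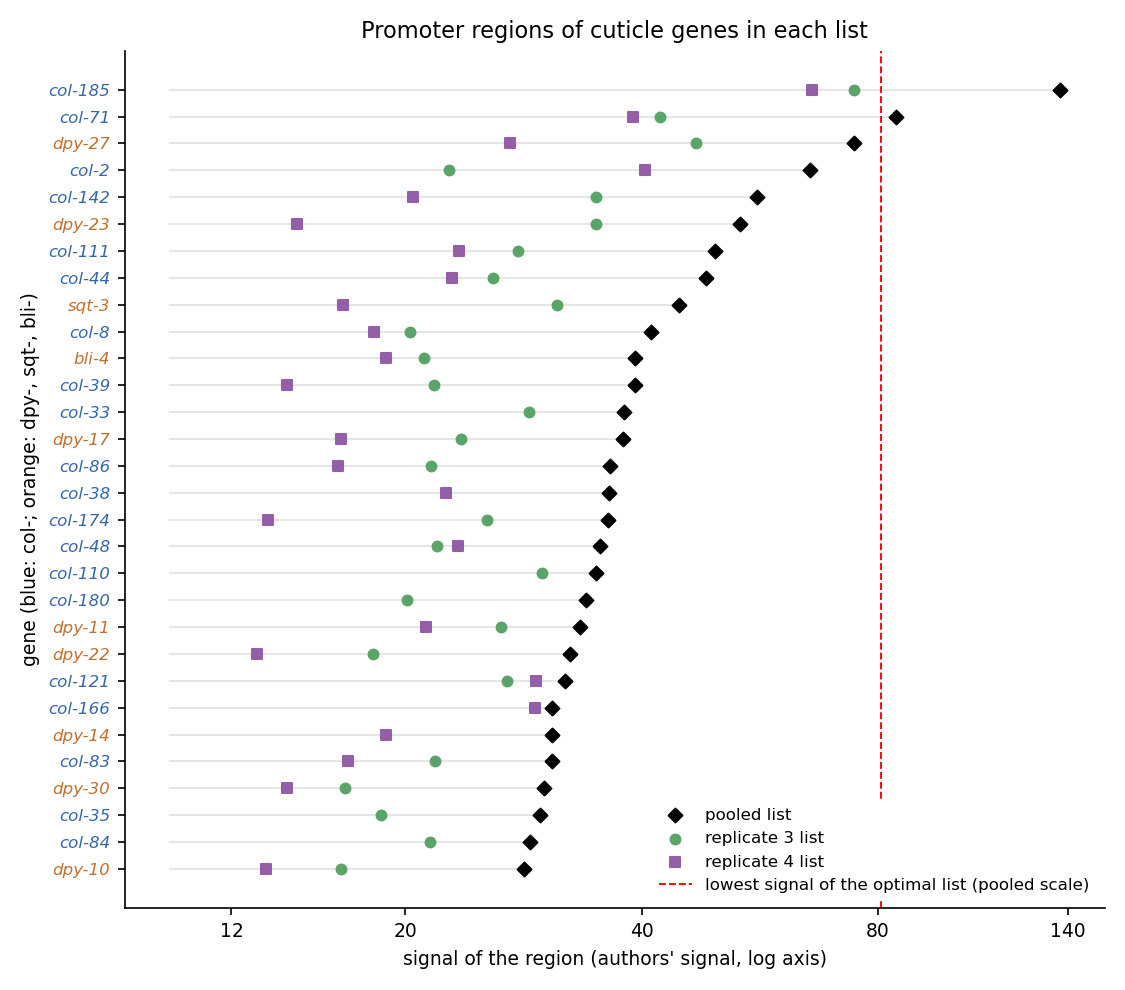
Signal of the region in the promoter of each of the 30 cuticle genes that have one in the pooled list (horizontal log axis, authors' signal), with the pooled value as a diamond and the overlapping region of replicate 3 (circle) and replicate 4 (square) where there is one. Only col-185 and col-71 lie to the right of the lowest signal of the optimal list (dashed line, 80.7), and 8 genes lack a region in 1 replicate.

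Below these 4 genes the pooled promoter signals ranged from 56.2 down to 28.3, and the lowest signal in the whole pooled list is 27.5. The 30 genes had a median pooled signal of 36.4, and the 4310 protein-coding genes with a pooled promoter region had a median of 38.1. The replicate medians are over other sets, the genes with a promoter region in that list. In replicate 3 they were 20.2 for 48 cuticle genes and 20.2 for 5275 protein-coding genes. In replicate 4 they were 16.9 for 39 and 18.5 for 5262. By rank, 2 of the 30 pooled regions were in the optimal list, 4 more had ranks up to 2000 and 16 lay beyond rank 5000. A region that overlapped the pooled region, by any length, was present in both replicates for 22 of the 30 (73.3%), against 64.6% for all genes. The summits of such regions could still lie apart. That of dpy-22 in replicate 4 was 384 bp from the pooled summit, and that of col-83 in replicate 3 was 267 bp from it. Replicate 3 gave the higher signal at 19 of these 22, with a median log2 ratio of replicate 3 to replicate 4 of 0.32, against 0.10 over all genes. Across the 22 genes the replicates' signals had a Spearman correlation of 0.63, and over all genes with such a region it was 0.57. Genes are not independent replicates, and the correlation is a description.

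Many of these promoter regions lay inside genes. Of the 30 summits, 16 were intergenic, 6 were inside the gene itself, 3 were inside a neighbouring col- gene and 5 were inside some other gene. The nearest 5' end was that of the cuticle gene for 23 and of another gene for 7. The region that counted for col-142, with 56.2 in the pooled list, 35.0 in replicate 3 and 20.4 in replicate 4, sits in a coding exon of col-141. The region for col-44, with 48.4, 25.8 and 22.9 in the same order, sits in a coding exon of col-9. The region for col-39, with 39.2, 21.8 and 14.1, sits in a coding exon of col-79. In all 3 cases the promoter of 1 collagen gene overlaps the coding sequence of the next, so the same region also counts among the summits inside genes.

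Among the remaining col- genes, the region of col-111 had a pooled signal of 49.7 and lay in its own 5' untranslated part, 94 bp downstream of the start. The summit for col-8 had a signal of 41.1 and lay 5 bp from the start of rfl-1, which encodes part of the enzyme that activates the ubiquitin-like protein NEDD8. The regions of col-33 (38.0), col-110 (35.0) and col-180 (34.0) were present in replicate 3 and absent from the list of replicate 4. That of col-38 (36.3) was present in replicate 4 alone. The other col- genes among the 15 highest were col-86 (36.4), col-174 (36.2) and col-48 (35.5), each with a region in both replicates.

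The dpy-, sqt- and bli- genes with a pooled promoter region fall into 2 kinds. Of the 20 that encode collagens, 4 had one (20%), and of the 18 that do not, 6 had one (33.3%), against 21.6% of all protein-coding genes. The order of the 2 kinds changed with the list. In replicate 3 the shares were 35% and 33.3%, against 26.4% of all genes. In replicate 4 they were 20% and 38.9%, against 26.3%. The 4 collagens were sqt-3, dpy-17, dpy-14 and dpy-10. The sqt-3 region had a signal of 44.6 in the pooled list, 31.2 in replicate 3 and 16.7 in replicate 4, and its summit was 188 bp downstream of the start, in the 5' untranslated part. The dpy-17 region (37.9, 23.6 and 16.6 in the same order) had its summit 39 bp downstream, in its coding sequence. Both summits of the remaining collagens were weaker, with 30.8 for dpy-14, which had no region in replicate 3, and 28.3 for dpy-10, the lowest of the 30. The genes with no collagen repeats were dpy-27, dpy-23, bli-4, dpy-11, dpy-22 and dpy-30. The region of dpy-23, which encodes a subunit of the AP2 adaptor of endocytosis, had 53.4 in the pooled list, 35.0 in replicate 3 and 14.5 in replicate 4. That of bli-4, which encodes a proprotein convertase that cuts procollagens, had 39.3, 21.1 and 18.9. The gene dpy-11, for a thioredoxin-like protein of the epidermis, had 33.4, 26.5 and 21.2, with the summit in a coding exon of the neighbouring mdh-1. The last of them were dpy-22, for a subunit of the Mediator complex, with 32.4, 18.2 and 13.0, and dpy-30, for a subunit of histone H3 lysine 4 methyltransferase complexes, with 30.1, 16.8 and 14.1.

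No list held a promoter region for 110 col- genes (70.5%) and for 23 of the others (60.5%), against 62.3% of all protein-coding genes. Among the latter were bli-1, bli-2, rol-6, rol-8, sqt-1, dpy-2, dpy-5, dpy-7 and dpy-8, which encode cuticle collagens, and bli-3, bli-5, dpy-18 and dpy-31, which encode a dual oxidase, a protease inhibitor, a collagen prolyl hydroxylase and an astacin protease. Absence from a list says only that no region was called there, and a limit on the signal cannot be given without read counts. Another 4 col- genes had a region in both replicates and none in the pooled list. For col-20 the summits were at 166 bp in replicate 3 and at -633 bp in replicate 4, for col-89 at -265 bp and -875 bp, and for col-47 at -679 bp and 91 bp, so the replicates marked different places. For col-85 they were at 79 bp and 139 bp, in regions that overlap, with signals of 18.7 and 26.9. Both lie within 500 bp of the tRNA gene T21B4.t1 and overlap a stronger pooled region with its summit in that gene, described below.

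**Figure D2:**
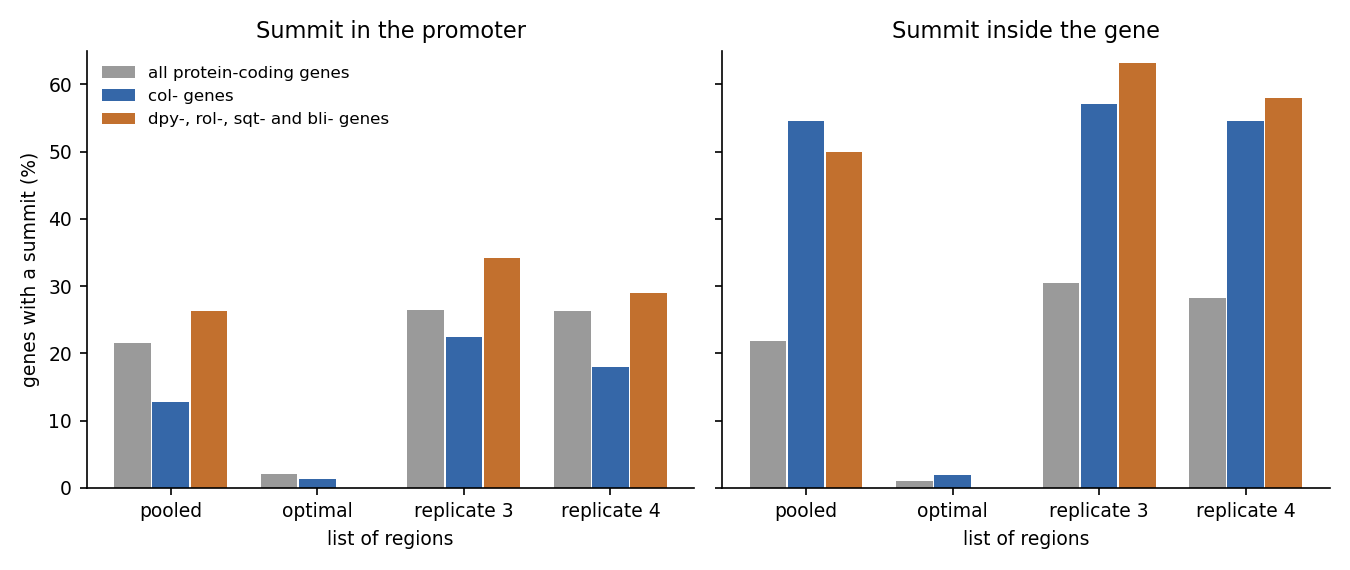
Share of genes with a summit in the promoter (left) and inside the gene (right) in the pooled, optimal and replicate lists, for all 19985 protein-coding genes (grey), 156 col- genes (blue) and 38 dpy-, rol-, sqt- and bli- genes (orange). In the pooled list the promoter share of col- genes (12.8%) is below that of all genes (21.6%), while the share with a summit inside the gene is 54.5% against 21.9%.

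More cuticle genes had a weak pooled summit inside the gene than in the promoter. This count was added after the data were seen, and it rests on calls with high q values. Of the 84 collagen genes whose highest region inside the gene lay in a coding exon, 0 had a region with q of 0.05 or less, and the median q of these regions is 0.543. With the limit of 0.05, 4 of the 194 cuticle genes held a summit (2.06%), against 2.13% of all protein-coding genes: rol-3 and the 3 genes with a tRNA gene in an intron, described separately. The shares that follow are for all pooled regions. A pooled summit between the ends of the gene was found in 104 of the 194 cuticle genes (53.6%), against 21.9% of all protein-coding genes. The col- genes (85 of 156, 54.5%) and the others (19 of 38, 50%) had similar shares, as did the 175 genes with collagen repeats (94 genes, 53.7%). Cuticle genes are short, with a median length of 1256 bp against 2026 bp for all genes, so they offer less room for a summit. Per kilobase, genes with collagen repeats held 0.470 pooled summits and all protein-coding genes 0.105. The 19 genes without repeats, with a median length of 5535 bp, held 0.123, close to the value of all genes.

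The replicate lists gave a difference in the same direction. In replicate 3, 58.2% of cuticle genes held a summit, against 30.5% of all genes, and in replicate 4 55.2% did, against 28.3%. A summit in both replicate lists was found in 42.3% of cuticle genes, against 17.1%. The optimal list was different, with 3 cuticle genes (1.55%), against 1.04% of all genes. The contrast was widest for coding exons, where 97 cuticle genes (50%) held a pooled summit, against 10% of all genes. Counting pooled regions that both replicates overlap by at least 50% of their length gave 66 of the 175 genes with repeats (37.7%) against 11.8% of all genes.

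The 3 optimal regions inside cuticle genes all have their summit in a tRNA gene that lies within an intron of the collagen gene. In col-85 the region had a pooled signal of 233.8 (rank 39), with 139.3 in replicate 3 and 96.2 in replicate 4, and its summit is in the tRNA gene T21B4.t1. In col-99 it had 156.1 (rank 118), with 68.2 and 86.5, in F29C4.t1. In col-72 it had 117.2 (rank 243), with 53.1 and 63.4, in W09G10.t1. None of these summits is in the promoter span of its collagen gene as counted in the pooled list. Outside these 3, no region in a cuticle gene reached the optimal list.

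The regions in coding exons were all below the optimal list and spanned most of the ranks under it. In genes with collagen repeats the highest region per gene lay in a coding exon in 84 of 94 cases, with a median signal of 38.6 and a range from 27.8 to 59.2. The highest of them has rank 1296 and the lowest rank 11276 of 11626. Genes named in this and the next paragraphs for regions in their coding sequence were chosen after their values were seen. They are the 4 of highest signal, the dpy-, rol-, sqt- and bli- collagens with a summit, and col-107, an example from further down the list with GC-rich repeats. The highest was col-108, with 59.2 in the pooled list, 29.3 in replicate 3 and 24.0 in replicate 4. Close behind were col-123 (58.7, 27.4 and 28.3 in the same order), col-8 (58.6, 30.8 and 29.0) and dpy-7 (57.5, 31.6 and 23.5). The dpy-7 protein is a collagen of the annular furrows, the circumferential grooves of the cuticle. Both replicates had an overlapping region for 59 of the 84, and replicate 3 was the higher at 41 of these. The same count over all coding exon regions was not made. For the promoter regions of all protein-coding genes it was 2785 of 4310 (64.6%), with replicate 3 higher at 1635. The Spearman correlation between the replicates across the 59 genes was 0.06.

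Among the dpy-, rol-, sqt- and bli- collagens, 10 of 20 held a pooled summit, against 21.9% of all protein-coding genes. After dpy-7 the highest was dpy-4 with 51.7 in the pooled list, 27.4 in replicate 3 and 26.1 in replicate 4. The gene dpy-5 had 44.7 in the pooled list and 31.8 in replicate 4, with no overlapping region in the list of replicate 3. For dpy-3, of the annular furrow group, the values were 41.9, 23.5 and 18.5 in the order used for dpy-4. The rol-6 gene, whose dominant mutation is a common roller marker of transgenic worms, had 36.9, 21.5 and 17.3. Weaker regions were in dpy-13 (32.5), dpy-2 (31.1) and dpy-14 (30.7). The regions of sqt-3 and dpy-17 were those already given with their promoters. Among the genes with no collagen repeats the highest was rol-3, for a receptor tyrosine kinase, with 59.96 in the pooled list, 39.99 in replicate 3 and 21.9 in replicate 4, and that summit is 33 bp from the tRNA gene C16D9.t2.

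The 3 windows below, inside such coding exons, are printed because they show what the regions sit on. The dpy-7 window is X:7537007-7537126 (minus strand), the col-123 window IV:9822576-9822695 (plus strand) and the col-107 window IV:1549363-1549479 (plus strand). The sequences are from the RefSeq sequence of WBcel235, in the reading frame and on the strand of the gene. Capitals mark the in-frame glycine codons, 14 of 40 codons for dpy-7, 14 of 40 for col-123 and 14 of 39 for col-107.
dpy-7: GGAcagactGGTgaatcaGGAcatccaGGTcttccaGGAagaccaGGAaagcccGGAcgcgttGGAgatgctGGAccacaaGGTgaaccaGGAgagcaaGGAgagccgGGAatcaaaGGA
col-123: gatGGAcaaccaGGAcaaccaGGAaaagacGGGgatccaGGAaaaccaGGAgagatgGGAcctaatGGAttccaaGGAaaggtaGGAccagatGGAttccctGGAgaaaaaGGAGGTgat
col-107: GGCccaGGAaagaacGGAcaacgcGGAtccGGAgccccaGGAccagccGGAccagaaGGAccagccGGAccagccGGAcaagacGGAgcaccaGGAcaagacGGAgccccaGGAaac

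A glycine codon starts nearly every triplet of codons in these windows, and GGA is the one used most often. Of the 84 coding exon summits, 67 (79.8%) lay in a Gly-X-Y stretch, while such stretches made up a median of 50.5% of the coding sequence of the same genes. The col-107 region had a pooled signal of 53.8, with 31.2 in replicate 3 and 23.1 in replicate 4. GC content moved with these regions. The median within 100 bp of the summit was 60.2% for the 84 regions and 41.3% for all pooled regions. The regions were mostly single-copy, since the median share of 36-mers in the region that occur once in the genome was 100%, and 70 of the 84 had at least 95%.

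**Figure D3:**
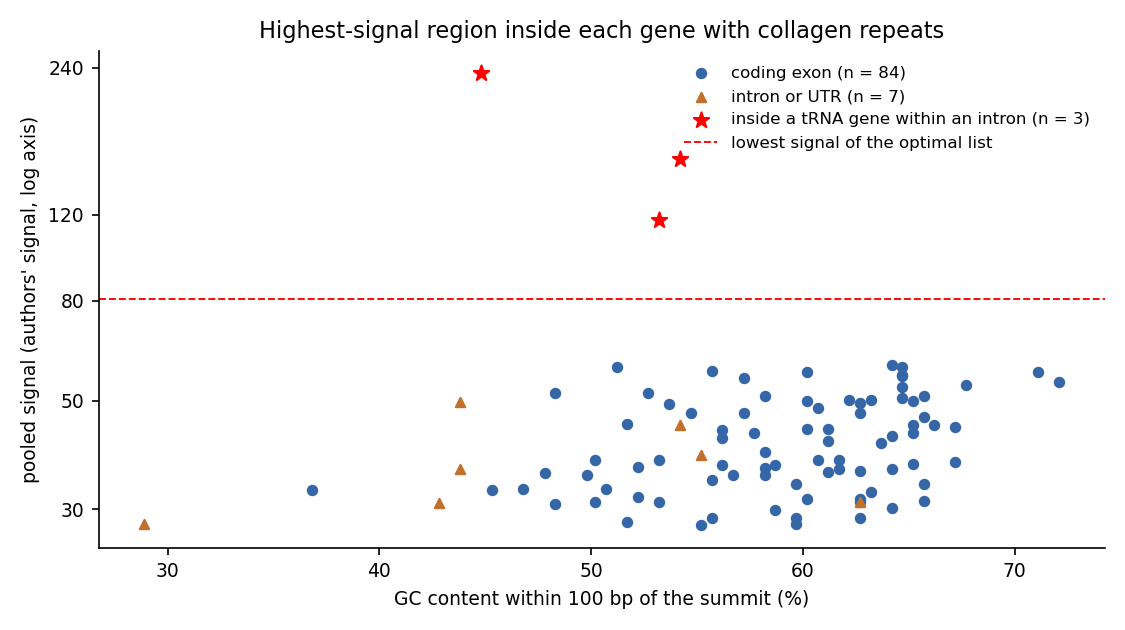
Pooled signal (authors' signal, log axis) of the highest region inside each of the 94 genes with collagen repeats that hold one, against the GC content within 100 bp of its summit. The 84 coding exon regions (circles) lie between 27.8 and 59.2, below the lowest signal of the optimal list (dashed line, 80.7), and the 3 regions in tRNA genes (stars) lie above it.

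Along the gene, pooled summits at collagen genes peaked where the GC content did. From 600 to 800 bp downstream of the start there were 24.0 summits per 100 genes with collagen repeats and 2.01 per 100 of all protein-coding genes, and the mean GC content of that stretch was 54.2% and 36.4%. In the 200 bp just upstream of the start the order was the other way, with 1.14 summits per 100 collagen genes and 5.50 per 100 of all genes, where the GC content was 37.2% and 33.7%. From 400 to 200 bp upstream there were 4.57 and 5.33. All genes thus had their most summits just upstream of the start, and collagen genes within the coding sequence.

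**Figure D4:**
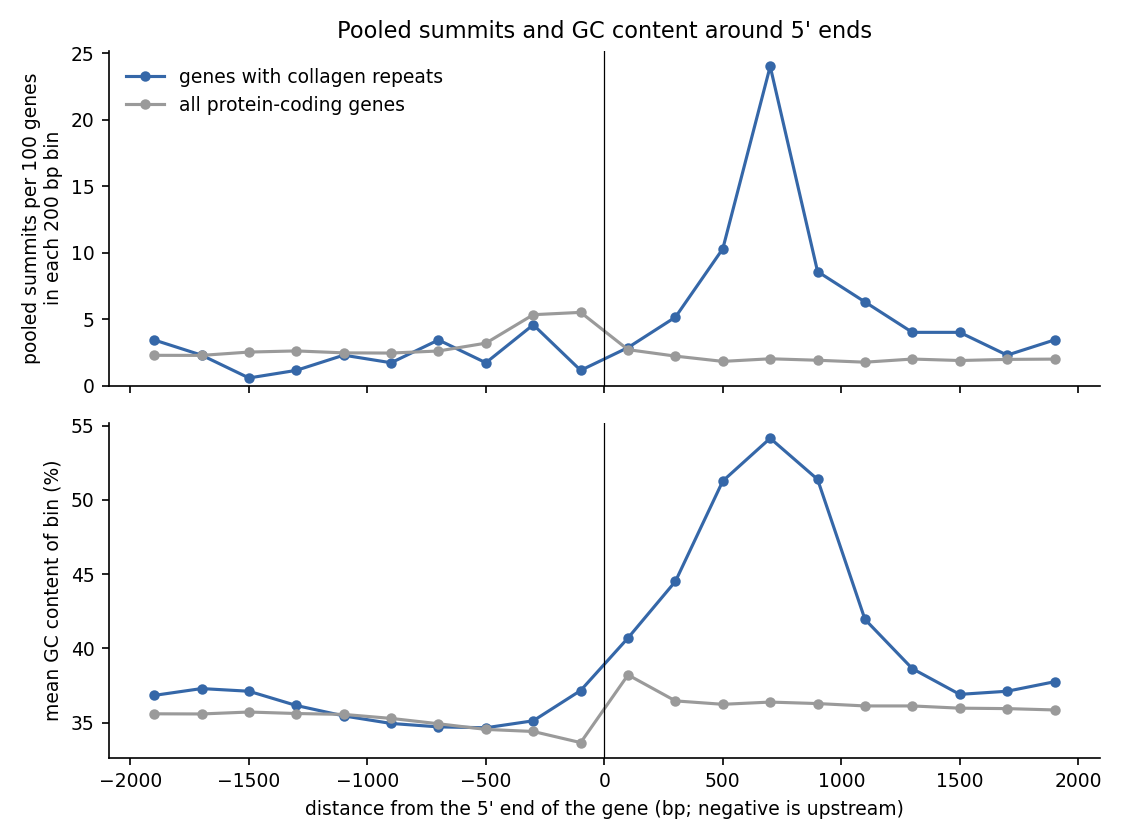
Pooled summits per 100 genes (top) and mean GC content (bottom) in bins of 200 bp from 2000 bp upstream to 2000 bp downstream of the 5' end, for 175 genes with collagen repeats (blue) and all protein-coding genes on the nuclear chromosomes (grey). Collagen genes peak at 24.0 summits from 600 to 800 bp downstream, where their GC content is 54.2%, and all genes peak at 5.50 in the last bin upstream.

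The shares were also set side by side in bins of the GC content of the whole gene. Genes with collagen repeats have a median GC content of 49.0%, and all protein-coding genes 36.4%. Between 48% and 52% GC, 50% of 50 collagen genes held a pooled summit and 20.6% of 286 genes outside the cuticle set did. At 52% and above the shares were 60% of 55 and 19.2% of 146. Per kilobase, collagen genes held more summits in all 5 bins of GC content. At 52% and above there were 0.685 summits per kb in collagen genes and 0.439 in the other genes, and below 40% there were 0.182 and 0.0930. The density in the other genes itself rose from 0.0930 to 0.439 summits per kb between these bins. The bins are wide and use the whole gene, while the local GC content at the summits is higher, and the part of GC content in the result was not tested. The control library was not analysed here.

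**Figure D5:**
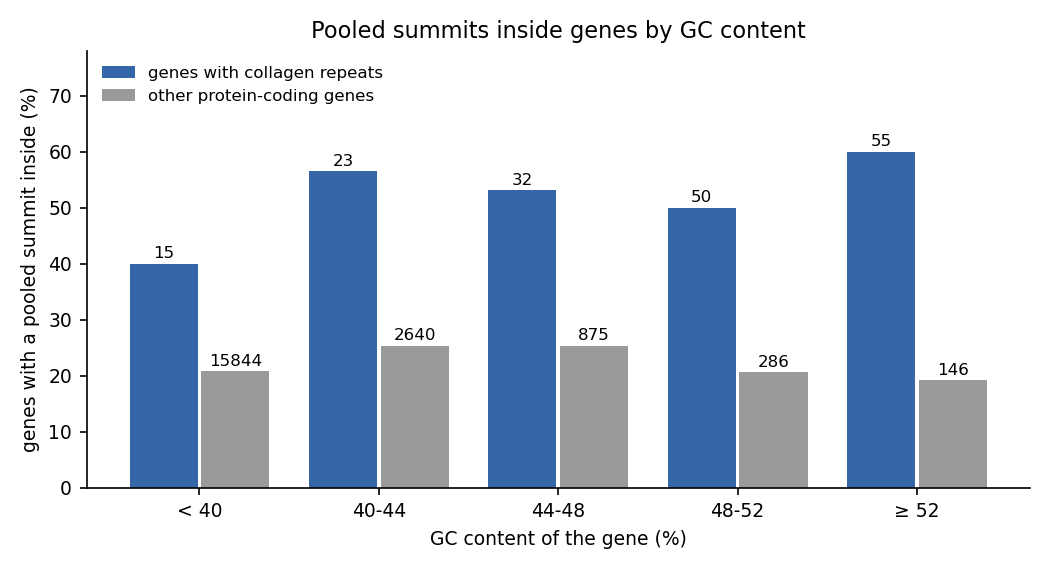
Share of genes with a pooled summit inside, by GC content of the whole gene, for genes with collagen repeats (blue) and protein-coding genes outside the cuticle set (grey), with the number of genes above each bar. Collagen genes range from 40% to 60% and the other genes from 19.2% to 25.4%.

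The hexamer CCGGAA was present at a minority of the regions. ETS-domain proteins bind DNA around the shorter GGAA, which was not counted alone, and the search used CCGGAA on both strands. It was found within 100 bp of the summit in 3 of the 30 promoter regions of cuticle genes (10%, exact 95% interval 2.11% to 26.5%), against 14.1% of all pooled regions. For the 84 coding exon regions it was 16 (19.0%, interval 11.3% to 29.1%), at a GC content well above that of the pooled list. Within 50 bp the shares were 6.67% of the promoter regions and 10.7% of the coding exon regions, against 8.87% of all pooled regions. The longer ACCGGAAG within 100 bp gave 3.33% (1 region, interval 0.0844% to 17.2%) and 1.19% (1 region, interval 0.0301% to 6.46%), against 3.31%. For the coding exon regions, the interval within 100 bp held the share of the pooled list with either motif. The intervals cover the sampling of regions alone, and neighbouring collagen genes share sequence. A search of whole spans used the same distances, but around the outermost 5' end of each gene alone. In that span CCGGAA occurred in 28.4% of cuticle genes and 33.4% of all genes on the nuclear chromosomes. It occurred in 46.7% of the 30 cuticle genes with a pooled promoter region and in 25% of the 164 without. Regions were counted at any transcript start, so some, such as that of col-86, lie outside the span searched. The same contrast over all genes with and without a region is not given. A match is a description of the letters and not of a bound site.

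Other genes of the cuticle and its regulation varied by list, with promoter shares from 0% to 40%, on both sides of the 21.6% of all protein-coding genes. Of the 6 annular furrow collagens (dpy-2, dpy-3, dpy-7, dpy-8, dpy-9 and dpy-10) only dpy-10 had a pooled promoter region, and 3 had a summit inside the gene (dpy-2, dpy-3 and dpy-7). Of the 5 dosage compensation and chromatin genes named dpy-, 2 had one (dpy-27 and dpy-30), and dpy-21 and dpy-28 had a summit in a coding exon. Of the 16 genes for collagen modification, folding and processing, 4 had one (25%). The highest was pdi-2, for the protein disulfide isomerase that is also a subunit of prolyl hydroxylase, with 77.3 in the pooled list, 39.2 in replicate 3 and 38.4 in replicate 4, and the next was bli-4. Of 44 cuticulin and other apical matrix genes 8 had one (18.2%), led by cutl-23 (63.3, near the tRNA gene B0244.t2) and cutl-9 (43.2). The 3 basement membrane collagens had none in the promoter, and emb-9 and let-2, the type IV collagens, held a summit in a coding exon. Of 11 epidermal transcription factors matched by symbol (elt-5 was not) 4 had a promoter region (36.4%). One of these, that of nhr-25, a nuclear receptor required for epidermal development and moulting, was in the optimal list with 90.3 in the pooled list, 42.4 in replicate 3 and 47.2 in replicate 4. The next was elt-1, for the GATA factor that specifies the epidermis, with 42.6, 26.6 and 14.5. None of the other 5 lists held an optimal promoter region. Over all protein-coding genes, 21.9% held a pooled summit inside the gene and 10% held one in a coding exon. A pooled summit inside the gene was found in 9 of the 16 modification genes (56.2%), 6 of the 11 transcription factors (54.5%) and 17 of the 44 cuticulin and matrix genes (38.6%). These are longer genes, with median lengths of 5212, 5472 and 4320 bp, and they held 0.123, 0.180 and 0.127 summits per kb. The annular furrow collagens held 0.417 per kb, and all protein-coding genes 0.105. For the 3 basement membrane collagens it was 0.143 over 34.9 kb, and for the dosage compensation and chromatin genes 0.1.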

How the data were processed

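ChIP-seq regions of 2 biological replicates of tagged ETS-7 were used on ce11, which is the WBcel235 assembly. Per the deposited descriptions, the authors called regions against a control, with a relaxed threshold, in each replicate and in both replicates pooled. They then compared the lists by irreproducible discovery rate (IDR) and kept the optimal list. The values are the deposited signal per region and the deposited summit offset. The deposited −log10 q values were not used for ranking, but pooled regions with q of 0.05 or less were counted as an alternative added after the data were seen. The sources used here give no aligner, caller, version or signal scaling, and depth is unknown. Calling was relaxed, and the deposited name of the pooled list says that it holds both peaks and background, as input for IDR. Which of the weak pooled regions are background is not marked. Control libraries, signal tracks and the ce10 lists were not analysed here.

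Gene models came from Ensembl release 115 and small RNA gene names from RefSeq on WBcel235, matched by identical position. For each gene the region of highest signal with its summit from 1000 bp upstream to 200 bp downstream of any transcript start was taken. Small RNA genes within 500 bp were recorded. Where a replicate is given beside a pooled region, its value is that of the overlapping region of that list. Summits inside genes were counted between the annotated gene ends. Gene ends, motif matches and shares were computed with Python 3.11.15, NumPy 2.4.6, pandas 2.3.3, Biopython 1.88 and matplotlib 3.10.9, and the assignment and motif search were tested on simulated data. Intervals are exact (Clopper-Pearson, 95%). The 36-mer length for single-copy sequence is an assumption, since read length is not given.

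No test was made, since there is 1 group. Counts and medians stand beside the same over all protein-coding genes. The members, gene lists and alternatives were chosen with earlier results of these data known. The rule for named genes took all members with an optimal promoter region, the 15 col- and 15 other genes of highest pooled signal, regions near small RNA genes, and the genes of known role. For other lists it took genes with an optimal region, otherwise the 2 of highest signal. Alternatives changed the promoter span, the assignment to the nearest 5' end, the handling of small RNA genes, the stringency of the lists, the replicate used, and the motif and its window. Summits inside genes and their alternatives were added after the data were seen.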

Additional observations from a re-analysis of the deposited data

How the results depend on the processing

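Of 52 alternative values, 35 stayed within 1.5 times the count or within the spread of the value. The pooled promoter count of col- genes was 12 with a narrower promoter, 33 with any overlap of the region and 13 with regions that both replicates overlap by 50% or more, against 20. With a narrower promoter the share of col- genes was 7.69% against 14.8% of all genes. With any overlap it was 21.2% against 25.7%, and with regions both replicates overlap 8.33% against 13.2%. The optimal count of col- genes was 1 instead of 2 with a narrower promoter, with the nearest 5' end alone, without regions near small RNA genes, and with the upper 50% of the optimal list. Leaving out a replicate gave 22 to 28 pooled and in each case 1 optimal col- gene, and 7 to 11 pooled and 0 to 1 optimal dpy-, rol-, sqt- and bli- genes. Without replicate 3 the pooled shares were 14.1% of col- genes and 18.4% of the others, both below the 21.4% of all genes. Without replicate 4 they were 17.9% and 28.9%, against 20.6%, so the side on which the others fell changed with the replicate. The median signal of the promoter regions was 16.9 to 20.2 without a replicate, over the cuticle genes with a region in the remaining list. Over all genes with one it was 18.5 to 20.2. The share with CCGGAA was 0% of the 2 optimal regions, against 10%. Genes with collagen repeats that held a summit, counted after the data were seen, were 82 to 90 without a replicate and 3 in the optimal list, against 94 in the pooled list. The share was 46.9% without replicate 3, against 22.1% of all genes, and 51.4% without replicate 4, against 23.1%. In the optimal list it was 1.71%, against 1.04%. With pooled regions of q 0.05 or less, added after the data were seen, 3 col- genes and 1 other gene had a promoter region and 3 genes with collagen repeats (1.71%) held a summit, against 2.13% of all genes. The cause of these moves was not tested, except that fewer regions enter a stricter list. No paired analysis was possible because there is 1 group. Unknown depth limits what absence from a list shows, and with 2 regions in the optimal list a change of 1 is large.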

Other observations

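The cuticle genes are spread over all 6 nuclear chromosomes. Chromosome IV holds 47 of them, and 10.6% of these had a pooled promoter region, against 20.3% of all genes there. On chromosome V it was 11.1% of 36 genes against 14.7%, and on chromosome X 21.2% of 33 against 23.4%. Measured from the 5' end in either direction, the nearest pooled summit lay at a median of 1141 bp for cuticle genes and 3140 bp for all protein-coding genes. For optimal summits the medians were 68501 bp and 69523 bp.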
